A study of Caenorhabditis elegans with 2 samples.

Results

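The genes of the mitochondrial ribosome were examined in a map of ATHP-1 binding in the nematode Caenorhabditis elegans. The members were taken by name: every protein-coding gene whose symbol begins with mrpl- (large subunit) or mrps- (small subunit) in the Ensembl annotation of WBcel235, the ce11 genome. There were 70 of them among 19973 protein-coding genes on the nuclear chromosomes, 41 for the large subunit and 29 for the small subunit. None lay on the X chromosome. A member was called bound when the summit of a peak fell in a promoter window that starts 500 bp before any annotated 5′ end of the gene and stops 200 bp after it.

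The study had 1 group, with 2 biological replicates, each of whole young adults of both sexes grown for 64 hours from larvae that had been synchronized by starvation at L1. Every worm was of strain OP685, a line with unc-119(tm4063) on chromosome III in which the integrated construct wgIs685 supplies ATHP-1 tagged with GFP and FLAG at its carboxy terminus. Chromatin was sheared by sonication and captured with an antibody to GFP, and its DNA was sequenced (ChIP-seq). The labels do not give the promoter of the transgene or the tissues that express it, and untagged worms were not analysed here, so whether the binding described below depends on ATHP-1 was not tested. Because whole animals were used, sites bound in few cells and sites bound weakly in many cells cannot be told apart.

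Mitochondria keep a small genome and translate its few messenger RNAs, which encode core subunits of the respiratory chain, on ribosomes of their own. The RNA of these ribosomes is made inside the organelle, whereas their proteins are encoded in the nucleus, made in the cytosol and imported, so nuclear promoters set the supply of the protein part. In C. elegans, knockdown of mrps-5 lengthens life and induces the mitochondrial unfolded protein response. Many worm genes of this kind sit in operons, in which several genes are transcribed from 1 upstream promoter and the later messages are capped by trans-splicing. ATHP-1 is named for its AT-hook, a short motif that in other proteins enters the minor groove of AT-rich DNA, and its PHD finger, a fold that often reads histone tails.

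The DNA under the summits shows what the immunoprecipitated sites at these genes look like. Shown first are 61 bases centred on the summit for the 5 bound members whose summit lay between genes, read 5′ to 3′ on the strand of the member, from the RefSeq assembly of WBcel235 (ce11). Capitals mark the longest run of bases that any 2 of the bound members had in common in these windows.

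mrpl-28, chrII:156061-156121, minus strand: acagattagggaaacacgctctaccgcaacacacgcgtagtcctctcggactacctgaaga
mrpl-45, chrIII:1202334-1202394, minus strand: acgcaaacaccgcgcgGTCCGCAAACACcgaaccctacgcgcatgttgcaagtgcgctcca
mrpl-32, chrIII:8449394-8449454, plus strand: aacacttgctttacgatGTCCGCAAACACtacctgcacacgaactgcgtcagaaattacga
mrpl-55, chrIV:443871-443931, plus strand: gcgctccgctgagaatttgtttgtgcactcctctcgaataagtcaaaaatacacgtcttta
mrps-7, chrIV:14767885-14767945, minus strand: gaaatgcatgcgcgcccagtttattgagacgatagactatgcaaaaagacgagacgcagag

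Shown next, for contrast, are the 3 members whose summit lay inside their own coding sequence. The window of the remaining bound member, mrps-35, is not printed because it lies in annotated 5′ untranslated sequence.

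mrps-18.C, chrII:6736219-6736279, plus strand: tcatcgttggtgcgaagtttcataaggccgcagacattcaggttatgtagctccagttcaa
mrpl-41, chrII:289021-289081, plus strand: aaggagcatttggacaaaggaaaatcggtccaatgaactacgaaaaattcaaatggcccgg
mrpl-53, chrII:9597749-9597809, plus strand: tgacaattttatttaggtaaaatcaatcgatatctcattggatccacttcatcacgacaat

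The run of 12 bases shared by mrpl-45 and mrpl-32 was found by comparing all 36 pairs of bound members on both strands, after the windows had been read. The next longest run in any pair had 8 bases, and the median was 6. The run of 12 was present in the 61-base windows of 6 reproducible summits (0.364% of all in the list), these 2 included. It occurred 215 times on both strands of the nuclear chromosomes. The mrpl-45 window also begins with a shortened copy of the run. AATT is a short AT-rich word of the kind that AT-hooks favour in other proteins. It was in 37.7% of the windows of all reproducible summits and in 39.8% of those of promoter summits. Among the 9 bound members, 5 windows held the word. The windows of mrpl-28, mrpl-45, mrps-7 and mrps-18.C held no copy of it.

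Of the 70 members, 9 (12.9%, exact binomial 95% interval 6.05 to 23.0%, covering the counting of genes alone) had a summit of the authors' reproducible list in the promoter window. Over all protein-coding genes the share was 4.71%, and over autosomal genes, the fairer background since no member is X-linked, it was 5.24%. The large subunit had 6 of its 41 genes bound (14.6%) and the small subunit 3 of 29 (10.3%), and the difference between the subunits was not tested. Each bound member had its own summit, so the 9 genes rest on 9 peaks. None of these summits came within 200 bp of a tRNA, snoRNA or snRNA gene.

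The peaks at members ranged from mrpl-28, well inside the upper part of the reproducible list, to mrpl-53 near its end. Strength is the signal score of the authors' peak caller, a value relative to the control with no fixed range, and it is used here only to rank peaks within a list. Peaks of the reproducible list scored from 105.57 to 1171.65, and the list was the same as the strongest regions, in equal number, of the list made from both replicates together, the pooled list. Scores at the bound members ran from 108.37 to 197.88 with a median of 123.04, against a median of 149.75 over the strongest summits of all 941 bound genes. The best rank of a member was 336 and the median rank was 1153, against a median of 735 over all bound genes. No member was bound among the 250 strongest pooled regions, where 0.896% of all genes were.

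mrpl-28 (WBGene00020796), for a large subunit protein with a bacterial counterpart, carried the strongest peak of the group. Its peak on chromosome II, from 156033 to 156141, scored 197.88 in the reproducible list, 90.52 in replicate 1 and 111.54 in replicate 2. Its ranks were 336, 408 and 334, so both replicates placed it high. The summit lay at -82 bp, where a minus sign means before the 5′ end, in sequence between genes with no other protein-coding 5′ end in the window, and the peak was narrow, 109 bp against 420 bp for each of the other bound members.

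mrpl-45 and mrpl-32 followed, at the neighbouring ranks 571 and 572. mrpl-45 (WBGene00022493) encodes the counterpart of a human protein that holds the mitochondrial ribosome to the inner membrane. Its peak on chromosome III, from 1202154 to 1202573, scored 163.63, with 66.13 (rank 999) in replicate 1 and 102.94 (rank 411) in replicate 2. The summit was at -356 bp from mrpl-45 and at -182 bp from Y119D3B.12, which is transcribed in the opposite direction, so the peak belongs to a shared head-to-head promoter and is nearer the other gene.

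mrpl-32 (WBGene00016249) encodes a protein that in yeast and mammals is trimmed by the m-AAA protease of the inner membrane before it joins the ribosome. Its peak on chromosome III, from 8449214 to 8449633, scored 163.58, with 82.68 (rank 536) in replicate 1 and 84.10 (rank 703) in replicate 2. The summit lay at -333 bp from mrpl-32, in the 411-bp gap that separates it from the end of rpn-3, a gene for a proteasome regulatory subunit on the same strand. rpn-3 itself had a reproducible summit in its window, with a score of 194.23 at rank 355. The mrpl-32 summit is therefore a second peak of this gene pair, on the far side of rpn-3.

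mrpl-55, mrpl-41 and mrpl-53 encode large subunit proteins of the kind that mitochondria have added and bacteria lack. mrpl-55 (WBGene00022045) had a peak on chromosome IV, from 443691 to 444110, with a score of 141.05 and its summit at -84 bp. It ranked better in replicate 2, at 485 with a score of 97.12, than in replicate 1, at 2411 with a score of 46.59.

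mrpl-41 and mrpl-53 had the weakest peaks among large subunit genes, and both summits lay inside the gene. mrpl-41 (WBGene00015185) had its peak on chromosome II from 288841 to 289260. Its summit was at 112 bp, in a coding exon, with a score of 111.40 and ranks of 1470 in the reproducible list, 1598 in replicate 1 and 2446 in replicate 2. mrpl-53 (WBGene00008459) had its peak on chromosome II from 9597569 to 9597988. Its summit was at 157 bp, also in a coding exon, with a score of 108.37 and a rank of 1543. For mrpl-53 the nearest replicate summits ranked 1669 in replicate 1 and 2060 in replicate 2, and the latter was displaced by 111 bp, which put it outside the promoter window. Neither replicate alone therefore placed mrpl-53 among its strongest regions, taken in the number of the reproducible list, and the call rests on the combined data.

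Small subunit genes began at rank 1153 with mrps-7 (WBGene00013324), whose bacterial counterpart helps to assemble the head of the small subunit. The mrps-7 peak on chromosome IV, from 14767705 to 14768124, scored 123.04, with 45.88 (rank 2507) in replicate 1 and 78.91 (rank 836) in replicate 2. Its summit was at -185 bp from mrps-7 and at -286 bp from Y57G11C.3 on the opposite strand. As at mrpl-45, the peak lies between a pair of genes that face away from each other, here nearer to the member.

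mrps-18.C (WBGene00020499), 1 of 4 worm genes named for the S18 family, had its summit at 46 bp, in a coding exon. Its peak on chromosome II, from 6736039 to 6736458, scored 117.48, with 63.23 (rank 1120) in replicate 1 and 57.56 (rank 1807) in replicate 2. The replicate 2 summit was displaced by 135 bp, to 181 bp, near the edge of the promoter window. The other family members, mrps-18A, mrps-18B and mrps-18C, were not bound, and mrps-18B and mrps-18C had no region in their windows in any list.

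mrps-35 (WBGene00012697), for a small subunit protein specific to mitochondria, had its summit at -69 bp, on chromosome V, in a peak from 18981027 to 18981446. The score was 111.49, with 48.82 (rank 2158) in replicate 1 and 60.71 (rank 1601) in replicate 2, and the replicate summits were within 2 bp of the reproducible one. The 5′ ends of mrps-35 and of sws-1, whose product acts in homologous recombination, overlap by 173 bp, and the summit lay in the 5′ untranslated sequence of sws-1, at -87 bp from another annotated 5′ end of that gene. The 3 shared summits, at mrpl-45, mrps-7 and mrps-35, are thus all at head-to-head pairs.

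**Figure D1:**
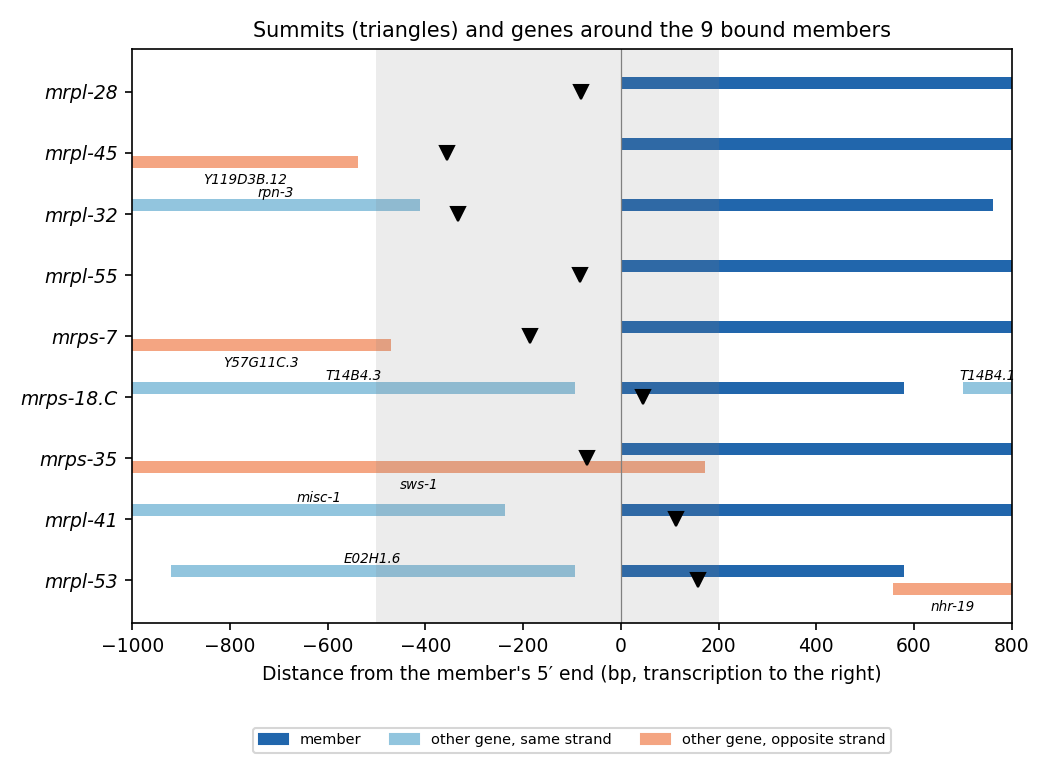
Position of the summit (triangle) at each of the 9 bound members, with distance from the member's 5′ end in bp on the x axis, transcription to the right, and members ordered by rank. Blue bars are genes on the strand of the member, orange bars genes on the opposite strand, and the grey band is the promoter window; 6 summits lie before the 5′ end and 3 inside the gene, at mrps-18.C, mrpl-41 and mrpl-53.

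Across the 9 bound members the median position of the summit was -82 bp, and 6 of 9 were before the 5′ end. Over all 941 bound genes the median was -181 bp and 86.5% were before the 5′ end. The 3 summits inside the gene were those at mrps-18.C, mrpl-41 and mrpl-53, each of which has a same-strand gene ending 93 to 236 bp before it. Operon membership was judged by distance alone, so whether these 5′ ends are starts of transcription was not tested.

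The replicates differed in how many members they placed high. With the strongest regions of each replicate taken by themselves, as many as the reproducible list holds, 5 members (7.14%) were bound in replicate 1, against 4.20% of all genes, and 11 (15.7%) in replicate 2, against 5.00% of all genes. In replicate 1 the small subunit had 1 gene bound and in replicate 2 it had 5. Only mrpl-28, mrpl-45 and mrpl-32 were bound in both, which is 4.29% of members against 2.98% of all genes. The share of members bound in both replicates separately was thus nearer to its background than the share in the reproducible list. Among the 30 members with a region in the window in both whole lists, 19 (63.3%) ranked better in replicate 2, as did 56.5% of the 3984 protein-coding genes with a region in both. Ranks in the replicates had a Spearman correlation of 0.597 across those 30 members and 0.605 across those 3984 genes, given as descriptions, since genes are not replicates.

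The 5 unbound members that ranked within this number in a single replicate did so in replicate 2, none in replicate 1. mrpl-40 ranked 1053 in replicate 2 and 4835 in replicate 1, mrps-28 ranked 1310 and 11654, and mrps-17 ranked 1344 and 5530. mrpl-1, whose bacterial counterpart forms the L1 stalk where spent tRNA leaves, and mrps-24 are 344 bp apart and face away from each other. They shared 1 region of replicate 2 at rank 1203, while the pooled list had them at rank 4579. Another gene, emc-6, also faces away from mrps-24, with its 5′ end nearer, at 309 bp. The region therefore cannot be assigned to these members alone. In replicate 1 mrpl-1 ranked 11057 and mrps-24 had no region at all.

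**Figure D2:**
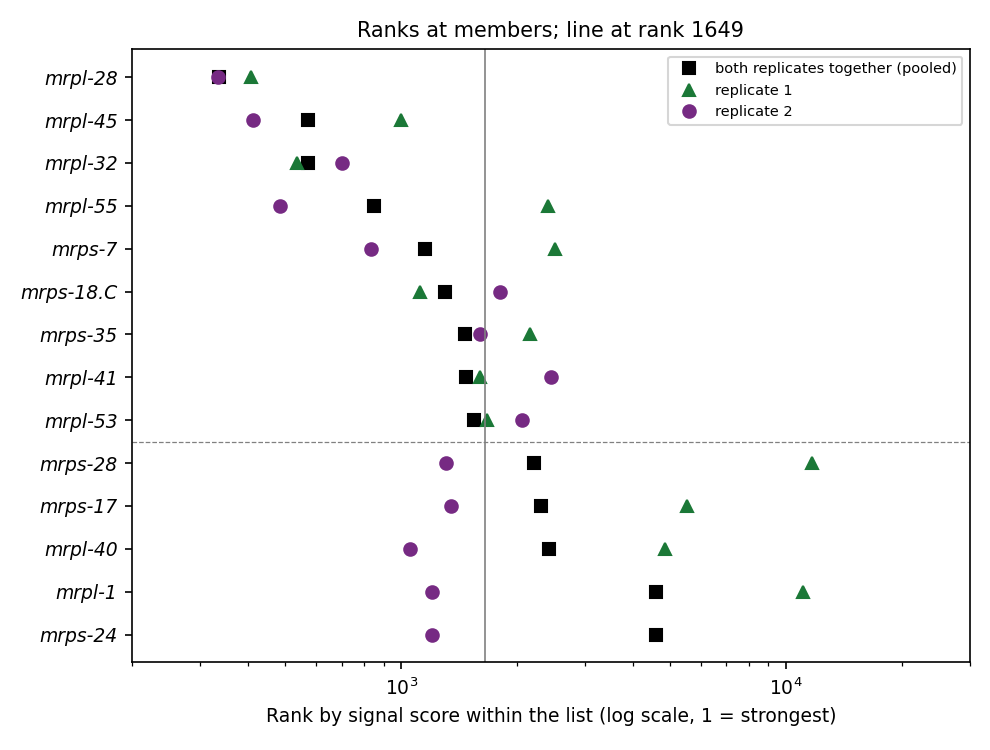
Rank by signal score (log x axis, 1 is the strongest) in the pooled list (squares), replicate 1 (triangles) and replicate 2 (circles) for the 9 bound members, above the dashed line, and the 5 members within the number of the reproducible list in replicate 2 alone. Bound members are plotted at the replicate summit nearest to the reproducible one, the others at the strongest in the window; mrps-24 had none in replicate 1, and only mrpl-28, mrpl-45 and mrpl-32 have all 3 symbols left of the vertical line that marks this number.

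Below the reproducible threshold, listed regions were common at members. By its name, however, the pooled list holds background as well as peaks, so a low-ranked region need not be a site of binding. Each replicate list was of the same length as the pooled one. The whole pooled list of 30000 regions, most of them under the reproducible threshold, had a summit in the window of 50 members (71.4%) against 30.7% of all genes. Replicate 1 had 37 (52.9%, against 29.8%) and replicate 2 had 44 (62.9%, against 31.6%). Among the 5000 strongest pooled regions 21 of the 70 members and 10.9% of all genes had one. Among the 500 strongest regions the pooled list had 1.43% of members and 1.70% of all genes, and replicate 1 had 1.43% and 1.47%. In replicate 2 the 500 strongest regions had 4.29% of members and 1.83% of all genes, so the lists differed at this depth, and no difference between members and all genes was tested.

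**Figure D3:**
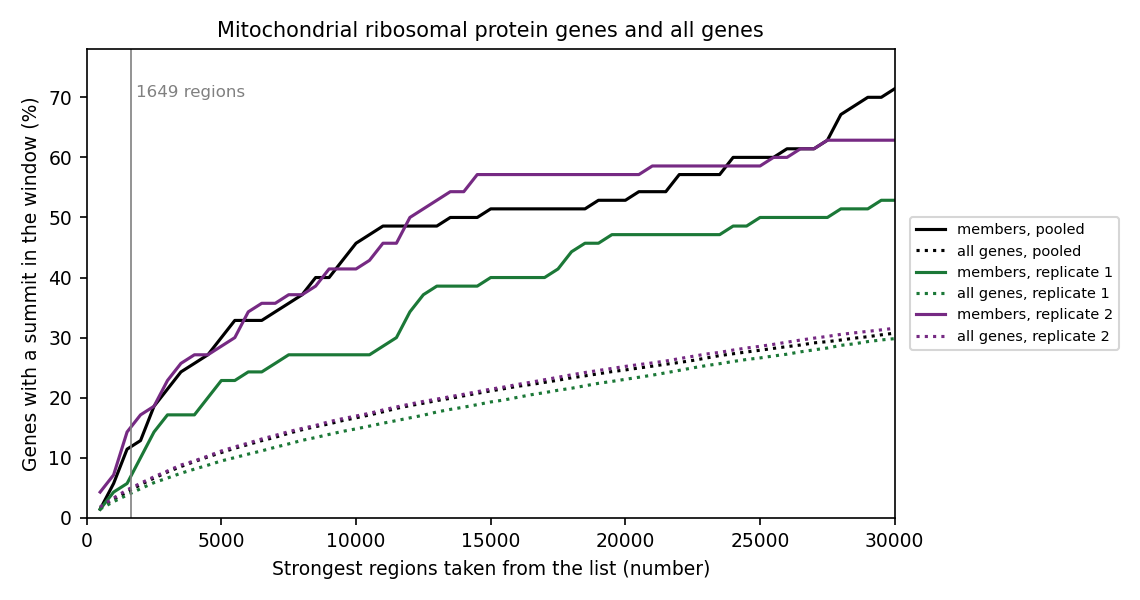
Percentage of genes with a summit in the promoter window (y axis) as more of the strongest regions of a list are taken (x axis), for the 70 members (solid) and all 19973 protein-coding genes (dotted) in the pooled list and each replicate. The pooled curves reach 71.4% and 30.7%, and the grey line marks the number of regions in the reproducible list. By its name the pooled list includes background regions.

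The remaining members fell into 3 tiers. There were 41 with a pooled region that was not in the reproducible list, at ranks from 2215 to 29528. The nearest to the threshold were mrps-28 at 2215, mrps-17 at 2304 and mrps-23 at 2343, against 1543 for mrpl-53, the weakest bound member. Also in this tier were mrps-12 at rank 3633, the counterpart of the bacterial protein that governs decoding accuracy, mrps-5 at rank 5368, and mrpl-2 at rank 20296, the counterpart of a bacterial protein near the peptidyl transferase centre.

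A further 3 members, mrps-11, mrps-14 and mrps-26, had a low-ranked region in a single replicate and none in the pooled list. The last 17 had none in the window in any list. They included mrpl-11 and mrpl-12, for proteins of the stalk that receives translation factors, while mrpl-10, the stalk protein to which L12 attaches in bacteria, had a pooled region only at rank 23907. mrpl-15 was also without a region in the window, but a reproducible summit with a score of 176.01 and rank 457 lay at -629 bp, between genes and in no gene's window. It was the only unbound member with a reproducible summit up to 1000 bp before or 500 bp after a 5′ end.

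By chromosome, 0 of 15 members on I were bound, where 6.81% of all genes were, and 2 of 22 on III, where 7.88% were. On II 4 of 12 members were bound, against 5.02% of all genes, on IV 2 of 11, against 5.21%, and on V 1 of 10, against 3.10%. The counts per chromosome are too small for a statement about any of them.

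Members were arranged differently from most genes, which bears on how the background should be read. A same-strand gene ended within 1000 bp of the 5′ end for 33 members (47.1%) with no head-to-head neighbour, against 29.4% of all genes. A head-to-head gene without such a neighbour was present for 25 (35.7%) against 17.4%, and both were present for 2. Only 10 members (14.3%) had neither, against 52.6% of all genes.

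Of the 33 members with a close same-strand gene 4 were bound, against 5.23% of all genes so arranged. Of the 25 in head-to-head pairs 3 were bound (12.0%), against 11.3% of all such genes, so here the shares were close. Of the 10 with neither neighbour 2 were bound, mrpl-28 and mrpl-55, where 2.24% of all genes were. Gene arrangement thus moves with the share bound over all genes, and its part in the difference between 12.9% and 4.71% was not tested.

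For 35 members with a close same-strand gene before them, the first gene of the run was looked up as well. It was bound for 5 of them (14.3%), against 7.14% of all 5995 genes in such a position. For mrpl-32 the first gene was rpn-3, and for mrpl-53 it was tag-124, 4 genes before it, with a summit at -22 bp and rank 925. For 3 members that were not bound themselves the first gene was bound. F29B9.11, before mrps-21, had a score of 236.77, clsp-1, before mrpl-54, had 190.49 at rank 383, and ech-5, before mrpl-46, had 111.79 at rank 1458. clsp-1 is named for claspin, a replication checkpoint protein.

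Other nuclear genes for mitochondrial functions were bound in shares near or above that of the mitochondrial ribosome, and the cytosolic ribosome more often. Of 49 genes for the respiratory chain and ATP synthase, a list made by name that may hold genes other than subunits, 11 were bound (22.4%). Their median score was 147.16, and cox-5B, a cytochrome c oxidase subunit, was strongest at 459.91. Of 12 genes for mitochondrial translation factors and the mitochondrial nucleoid 2 were bound (16.7%): gfm-1, for an elongation factor G, at 145.54 and tufm-2, for an elongation factor Tu, at 118.06. That list was made by name and also holds dap-3, a gene of neither kind, which was not bound. Of 18 import and chaperone genes 2 were bound (11.1%), the mitochondrial Hsp70 gene hsp-6 at 177.52 and the outer membrane receptor gene tomm-20 at 118.09. Of 11 synthetase genes with symbols ending in ars-2, a list made by name that may include cytosolic enzymes, 2 were bound (18.2%), ears-2 at 328.29 and yars-2 at 147.31. Cytosolic ribosomal protein genes had 31 of 81 bound (38.3%) with a median score of 202.42, so both the share and the strength were lower at the mitochondrial ribosome (12.9%, median 123.04). Differences between lists were not tested, and lists of 11 to 18 genes give shares with little precision.

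**Figure D4:**
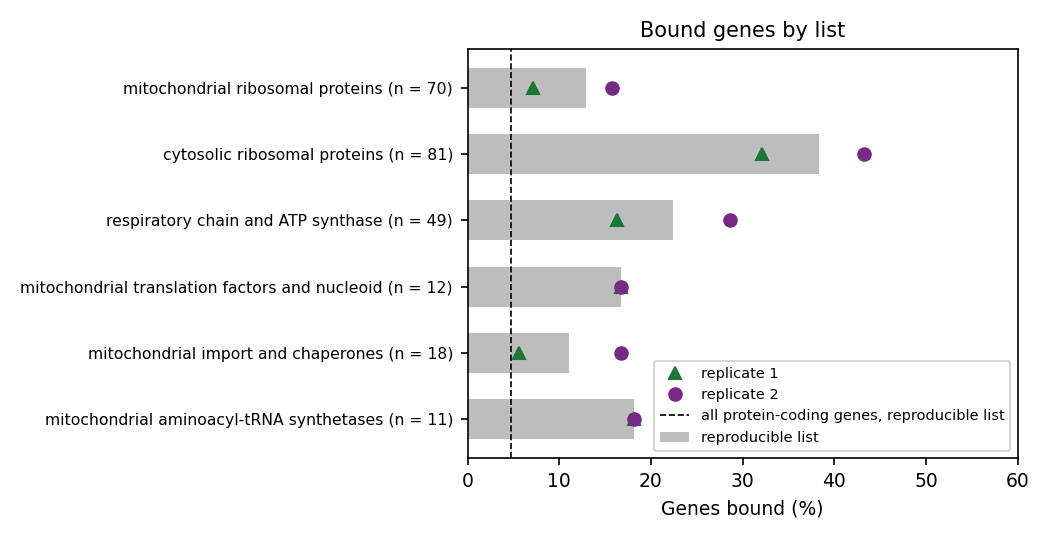
Percentage of genes bound (x axis) in the reproducible list (bars) and among as many of the strongest regions of replicate 1 (triangles) and replicate 2 (circles) for 6 gene lists, with the number of genes in brackets and the share of all protein-coding genes, 4.71%, as a dashed line. Mitochondrial ribosomal protein genes reach 12.9%, cytosolic ones 38.3%, and the replicates lie at 7.14% and 15.7% for the former.

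Base composition at the bound members was close to that of other promoter peaks. In the window of 100 bp to each side of the summit the median GC content was 39.3% over the 9 members, with a range from 28.4% at mrpl-32 to 42.8% at mrpl-41. It was 40.8% over 783 promoter summits and 42.3% over all reproducible summits, while the nuclear chromosomes as a whole have 35.4%. The longest unbroken run of A and T had a median of 13 bases at members, with 22 at mrps-35, and 10 bases at promoter summits.

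Short words searched in these windows on both strands were no more than descriptions with 9 windows. AATT was in 8 of 9 (85.3% of promoter summits), absent at mrps-7, and AAATTT, which contains it, in 4 of 9 (32.2%). CTGCGTC was at mrpl-32 and mrps-7 (11.1% of promoter summits), TTCCCGC at mrps-35 alone (6.77%) and TGACGT at mrpl-45 alone (6.64%). GAGAGA and CCGCCC, present at 24.5% and 9.45% of promoter summits, were in none of the 9. Within 50 bp of the summit AATT was in 5 of 9 members (60.3% of promoter summits), AAATTT in 0 (12.4%) and TTCCCGC in 0 (4.34%).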

How the data were processed

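ChIP-seq peak lists from 2 biological replicates were analysed. According to the readme deposited with them, a replicate list compares 1 alignment with 1 control, the pooled list compares both with a control, and the reproducible list combines these 3 by an IDR threshold (irreproducible discovery rate), as the file names say. The aligner and the peak caller are not stated in the labels or headers read, and the depth is unknown, so no precision is derived from it. The authors' deposited signal score, relative to the control, was ranked within each list only. The deposited −log10 q-value was not used, since 6 of the 9 peaks at members were tied at its maximum, 3.445. The other deposited columns used are the region start and the offset of the summit from it.

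Members, gene lists and alternatives were chosen with earlier results of these data known. Genes came from Ensembl release 115 (WBcel235, the build ce11), with 29314 protein-coding 5′ ends, and sequence from the RefSeq assembly of that build; ce10 lists were not used here. Coordinates are 1-based. Named genes are all bound members, members among the strongest regions of 1 replicate, members with a reproducible summit near the window, the 3 best-ranked other members, genes sharing a member's summit and bound first genes of runs; other named genes were chosen for their role or after their values were seen. A run joins same-strand genes separated by at most 1000 bp. No test was made, since there is 1 group of 2 replicates; intervals are exact Clopper-Pearson. Gene assignment was checked on simulated data. Computation used scipy 1.17.1, pandas 2.3.3, numpy 2.4.6 and matplotlib 3.10.9 in Python 3.11.15.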

Additional observations from a re-analysis of the deposited data

How the results depend on the processing

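The count of 9 bound members stayed between 7 and 10 with a window of 200 bp to each side (7 bound, against 2.60% of all genes), a window from 1000 bp before to 500 bp after the 5′ end (10, against 6.22%), the nearest gene alone (8, against 3.80%), the most upstream 5′ end only (9, against 4.42%), any overlap of the peak with the window (10, against 5.47%) and removal of summits near small RNA genes (9, against 4.42%). The threshold moved it more. With the 824 strongest reproducible peaks, 3 members were bound (mrpl-28, mrpl-45 and mrpl-32, at a median of -333 bp, against 2.56% of all genes), and with the 3000 strongest pooled regions 15 were (against 7.64%). From 1 replicate alone the count was 5 to 11, the share of all genes 4.20 to 5.00% and the median position -167 to -80 bp; the low count was replicate 1 alone, in which mrpl-55, mrps-7, mrps-35 and mrpl-53 were lost, while replicate 2 alone lost mrps-18.C, mrpl-41 and mrpl-53 and added 5 others. With 3000 regions of replicate 1, 12 members were bound (against 6.62% of all genes), and with 3000 of replicate 2, 16 (against 7.80%). mrpl-45 was lost with the nearest gene alone, and mrpl-45 and mrpl-32 with the 200-bp window. With the same-strand distance set to 300 bp, 3 of 23 members with only a close same-strand gene were bound, against 6.22% of all genes so arranged. With 2000 bp, 4 of 33 were, against 4.37%. The median GC content within 50 bp of the summit was 42.6%, against 45.5% over promoter summits and 45.5% over all reproducible summits. The causes of these changes were not tested. No paired analysis was possible because there is 1 group.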

Other observations

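Besides mrpl-45 and mrpl-32, the 12-base run shared by them was within 30 bp of 4 other reproducible summits. They lay at lsm-6 (rank 356), chmp-7 (rank 1435) and Y32B12B.2 (rank 1495), and at 1 site in no promoter window, at rank 26 with a score of 451.85. These genes were named after the run had been found, and the run was not tested against other words.

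If a member also counts as reached when the first gene of its same-strand run is bound, 12 of 70 members (17.1%) are reached, against 6.56% of all protein-coding genes counted in the same way. In the run that holds mrps-26, the gene directly before it, prmt-5, was bound, but the first gene, atp-2, was not.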
